A study of Mus musculus with 6 samples.

Results

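The genes described here are 10 genes of iron handling in the liver, chosen by name from what they are known to do, with earlier results of these libraries known. They are the hepcidin genes Hamp and Hamp2, the ligand Bmp6, the transferrin receptors Tfr2 and Tfrc, transferrin (Trf), the iron exporter Slc40a1, the importer Slc39a14 and the ferritin subunits Fth1 and Ftl1. All 10 were found among the 18444 gene identifiers of the deposited tables, and all 10 had reads in each of the 6 libraries.

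Liver RNA of male mice (C57BL/6 in the labels and C57BL/6J in the methods), given in the labels as 6 to 8 weeks of age, was sequenced in 6 libraries with 1 library per condition. In the diet model, mice received a standard diet (SD, labelled as a chow control), a high fat diet (HFD) or a high fat diet with JT003 (HFD plus JT003), over 16 weeks of diet with JT003 given for 4 weeks. In the CCl4 model, mice received corn oil (Corn oil), 20% carbon tetrachloride at 5 ml/kg every 3 days (CCl4) or the same with JT003 for 3 weeks (CCl4 plus JT003), over 6 weeks. JT003 is a peptide agonist of both adiponectin receptors, AdipoR1 and AdipoR2, and was given at 500 µg/kg. Groups held 6 mice, the labels do not state whether the age is that at the start, and the sources used here do not say if each library came from 1 mouse or from a pool. The labels name the diet model NASH, while the methods describe this diet alone as a model of nonalcoholic fatty liver. With 1 library per condition there was no replicate check, so each test compares 2 libraries and not 2 conditions, and each interval covers counting error only.

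Hepcidin is the peptide hormone by which the hepatocyte limits iron in the blood. It binds ferroportin, the exporter encoded by Slc40a1, and causes its loss from the surface of macrophages, hepatocytes and gut cells. Its transcription is raised by BMP ligands from sinusoidal endothelial cells through SMAD proteins, and by interleukin-6 through STAT3, so that both iron stores and inflammation act on it. Iron arrives at the hepatocyte on transferrin or as free iron through Slc39a14, and is stored in ferritin.

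Each library summed to 19374236 to 20184557 rounded expected counts, the deposited estimates of the reads of each gene. The hepatocyte markers were present in every library. The 10 markers, Alb, Apoa1, Ttr, Cps1 and Hnf4a among them, summed to 43379 to 57698 FPKM, a level that takes transcript length and library size into account, and none was at 0. In HFD and in CCl4, 1 of the 10 was called lower than in the control, while 2.49% and 2.46% of all genes were. None was called with JT003. Their median log2 ratio was -0.36 for HFD over SD and -0.29 for CCl4 over Corn oil, with 8 of 10 negative in each. It was -0.02 for JT003 on the diet, with 6 negative, and -0.21 for JT003 in the CCl4 model, with 8 negative. In bulk liver RNA, fewer cells of a type and less RNA per cell cannot be told apart.

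Both hepcidin genes lie side by side on chromosome 7, and their promoters are shown because the letters recognised by the BMP and the interleukin-6 pathway stand in them. The 150 bases before the start site are from RefSeq (GRCm38.p6, minus strand, chr7:30944030-30944179 for Hamp and chr7:30924182-30924331 for Hamp2). Capitals mark GGCGCC, the core of the BMP-responsive element, and TTCTTGGAA, a STAT-type site of the form TTCNNNGAA.
Hamp: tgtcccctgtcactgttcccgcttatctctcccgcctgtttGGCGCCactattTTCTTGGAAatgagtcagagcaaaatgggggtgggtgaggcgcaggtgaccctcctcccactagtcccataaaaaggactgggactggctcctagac
Hamp2: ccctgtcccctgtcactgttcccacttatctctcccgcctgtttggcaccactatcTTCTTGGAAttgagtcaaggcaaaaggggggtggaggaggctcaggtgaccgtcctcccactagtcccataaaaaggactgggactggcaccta
In Hamp, GGCGCC stood at -109 to -104 and TTCTTGGAA at -97 to -89, counted back from the start site. In Hamp2, TTCTTGGAA stood at -94 to -86, and the site aligned to GGCGCC carried the substitution G4A, counted from 1 at its first base. Among 32851 promoter windows of 300 bases in the same table (250 bases before to 50 after the start), searched on both strands, 11.9% held GGCGCC, 0.417% held TTCTTGGAA, 8.30% held the form TTCNNNGAA that includes it, and 7 windows (0.0213%) held both GGCGCC and TTCTTGGAA. Windows were listed for 7 of the 10 genes, and 2 of these 7 held GGCGCC (Hamp and Tfrc) and 2 held TTCTTGGAA (Hamp and Hamp2). These matches describe letters in a window and not sites in use.

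Hamp encodes hepcidin, and it was the only one of the 10 genes called higher with JT003 in both models. Of all genes, 0.767% were called higher with JT003 on the diet and 1.91% in the CCl4 model. The share called higher in both was not counted. Its rounded expected count was 6106 in SD, 3388 with HFD and 8642 with HFD plus JT003. The HFD library was the lowest of all 6 and the HFD plus JT003 library stood above SD. In the CCl4 model the expected count was 8596 in Corn oil, 8132 with CCl4 and 26719 with CCl4 plus JT003. The CCl4 plus JT003 library was therefore far above the other 5, at 3612 FPKM against 450 to 1158 FPKM.

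Hamp2 is the neighbouring copy of the gene, and its peptide is not held to act on ferroportin as hepcidin does. It was counted at 27 in SD, 34 with HFD and 132 with HFD plus JT003. It was counted at 138 in Corn oil, 768 with CCl4 and 1281 with CCl4 plus JT003, so that CCl4 and CCl4 plus JT003 stood above all other libraries, while Corn oil and HFD plus JT003 had overlapping intervals. Hamp2 made up 0.448%, 1.004% and 1.504% of the summed hepcidin counts in SD, HFD and HFD plus JT003. In the CCl4 model it made up 1.58% in Corn oil, 8.63% with CCl4 and 4.58% with CCl4 plus JT003.

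The transcripts of the 2 genes are 94.6% identical over their alignment, with 22 mismatched bases, and 16.6% of the 361 windows of 50 bases in the Hamp transcript were also found in Hamp2. Reads from such stretches were split between the genes by the counting, so the separate values are uncertain and the sum is not affected by the split. The summed count was 6133 in SD, 3422 with HFD and 8774 with HFD plus JT003. It was 8734 in Corn oil, 8900 with CCl4 and 28000 with CCl4 plus JT003. The order of the summed libraries after scaling was CCl4 plus JT003, Corn oil, HFD plus JT003, CCl4, SD and HFD, and only HFD plus JT003 and CCl4 had overlapping intervals.

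**Figure D1:**
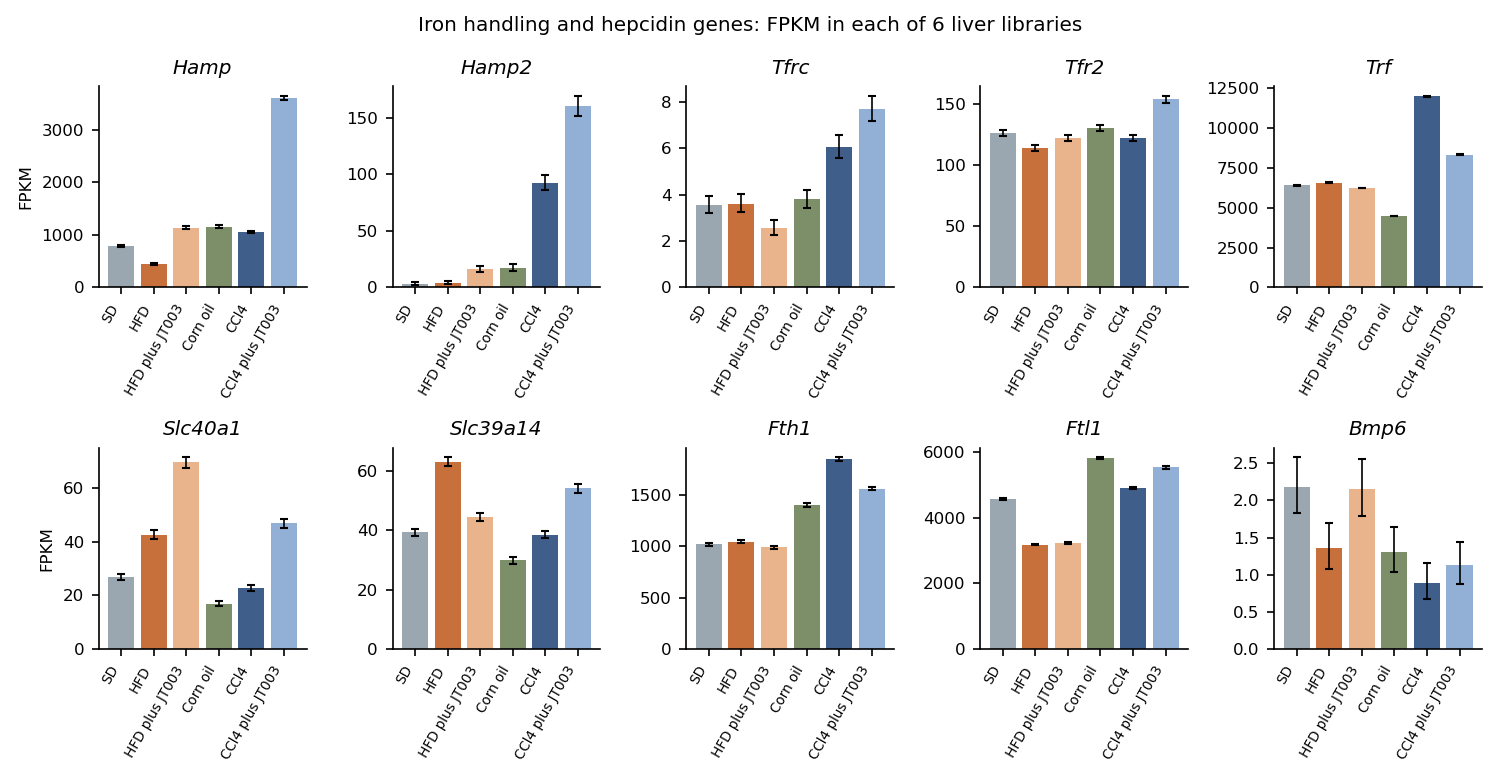
FPKM (y axis, from 0, a scale of its own per gene) of the 10 genes in each of the 6 libraries (x axis). Bars are the deposited values and lines the exact 95% Poisson intervals of the count, which cover counting error only; Hamp was 3612 FPKM in CCl4 plus JT003 and 450 FPKM in HFD, its highest and lowest libraries.

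Calls came from an exact conditional binomial test (two-sided) of the reads in a pair of libraries, Benjamini-Hochberg adjusted over all genes with reads. A call needed a log2 ratio of 1 or more in size and an adjusted p-value below 0.001. Library sizes were scaled by TMM (trimmed mean of M-values) over the 3 libraries of a model. Comparisons with the remainder of pooled CCl4 counts, described below, used TMM over that remainder and the 3 libraries of the CCl4 model.

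Between HFD and SD, none of the 10 genes was called in either direction by this test, while 2.96% of 16973 genes were called higher and 2.49% lower. Without the threshold on the ratio, 8 of the 10 passed the test in each of the 4 comparisons, while 23.6% of all genes passed for HFD over SD, 14.3% for JT003 on the diet, 26.3% for CCl4 over Corn oil and 24.1% for JT003 in the CCl4 model. With an assumed coefficient of variation between mice, of 0.2 or of 0.4, edgeR's exact test also called none. Hamp came nearest to the threshold, with a log2 ratio of -0.94 (95% interval -1.002 to -0.88), and 14.2% of all genes tested moved at least as far. The summed hepcidin count had a log2 ratio of -0.93 (95% interval -0.99 to -0.87). Hamp2, with 27 and 34 reads, was not told apart between the libraries (log2 ratio 0.23, 95% interval -0.53 to 1.03).

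Between HFD plus JT003 and HFD, 2 of the 10 genes were called higher and 0 lower, while 0.767% of 17090 genes were called higher and 0.901% lower. The 2 genes were Hamp and Hamp2. Hamp rose with a log2 ratio of 1.33 (95% interval 1.27 to 1.39), or 2.51-fold, and 3.41% of all genes moved at least as far. Hamp2 rose with a log2 ratio of 1.87 (95% interval 1.38 to 2.52). The summed count was 2.52-fold higher. Both calls were lost in edgeR's exact test with an assumed coefficient of variation of 0.2 between mice.

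Between CCl4 and Corn oil, 2 of the 10 genes were called higher and 0 lower, while 4.8% of 17234 genes were called higher and 2.46% lower. The 2 genes were Hamp2, with a log2 ratio of 2.17 (95% interval 1.92 to 2.46), and Trf. Hamp had a log2 ratio of -0.37 (95% interval -0.41 to -0.32), and the summed hepcidin count had one of -0.26. The Hamp2 call held with an assumed coefficient of variation of 0.2 and was lost at 0.4.

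Between CCl4 plus JT003 and CCl4, 1 of the 10 genes was called higher and 0 lower, while 1.91% of 17393 genes were called higher and 2.55% lower. The gene was Hamp, which rose with a log2 ratio of 1.71 (95% interval 1.67 to 1.74), or 3.26-fold, and 2.76% of all genes moved at least as far. Hamp2 had a log2 ratio of 0.73 (95% interval 0.60 to 0.86) and missed the threshold of the ratio. The summed count was 3.12-fold higher. The Hamp call was lost with an assumed coefficient of variation of 0.2.

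**Figure D2:**
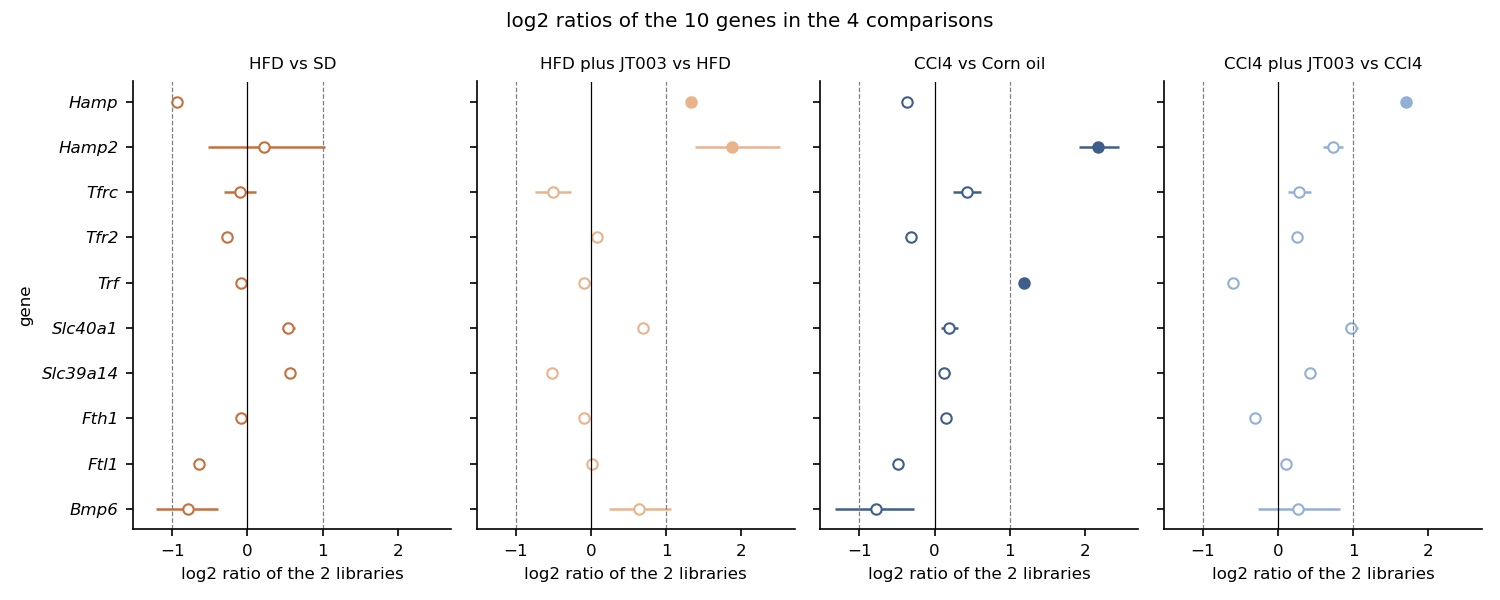
log2 ratio (x axis) of each of the 10 genes (y axis) in the 4 comparisons, with 95% Clopper-Pearson intervals that cover counting error only. Filled points were called, open points were not, and dashed lines mark log2 ratios of -1 and 1; Hamp is filled in both comparisons with JT003, at 1.33 and 1.71.

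A further set of CCl4 counts allowed the CCl4 library to be set against other CCl4 reads. One deposited comparison table holds a CCl4 column that sums to 2.97 times the CCl4 library, and from its values it appears to pool that library with others that the table does not name. The CCl4 library was subtracted from it, and the remainder is an authors' pooled value with no number of mice. Between the CCl4 library and this remainder, 1 of the 10 genes was called higher and 0 lower, while 0.24% of 17471 genes were called higher and 1.45% lower. The gene was Hamp2, at 37.5 CPM (scaled counts relative to the size of the library) in the CCl4 library and 9.35 in the remainder, a log2 ratio of 1.99 (95% interval 1.83 to 2.18). Hamp was at 397 CPM in the CCl4 library and 212 in the remainder, a log2 ratio of 0.90. Differences among CCl4 reads were thus as large as 3.99-fold for Hamp2 and 1.87-fold for Hamp.

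Between CCl4 plus JT003 and the remainder, 2 of the 10 genes were called higher and 0 lower, while 1.29% of 17554 genes were called higher and 3.38% lower. The 2 genes were Hamp, with a log2 ratio of 2.61 (95% interval 2.57 to 2.64), and Hamp2, with one of 2.72 (95% interval 2.57 to 2.90). Hamp in CCl4 plus JT003, at 1294 CPM, stood above both sets of CCl4 reads and above Corn oil at 512. The comparison of CCl4 with Corn oil depended on which CCl4 reads were used. Between the remainder and Corn oil, 1 of the 10 genes was called higher and 2 lower, while 7.36% of 17465 genes were called higher and 2.56% lower. Trf was called higher, with a log2 ratio of 1.27. With the remainder, Hamp2 had a log2 ratio to Corn oil of 0.18 in place of 2.17 and was no longer called, while Hamp had -1.27 in place of -0.37 and was called lower. Ftl1 was also called lower, with -1.01 in place of -0.49. Ratios of marker transcripts of other cell types also depended on which CCl4 reads were used. All 10 measured markers of red blood cells and their precursors had a negative log2 ratio for CCl4 plus JT003 over the remainder, with 6 called and a median log2 ratio of -2.41. Over the CCl4 library none of these markers was called, with a median of 0.00. The part of these markers in the results was not tested.

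**Figure D3:**
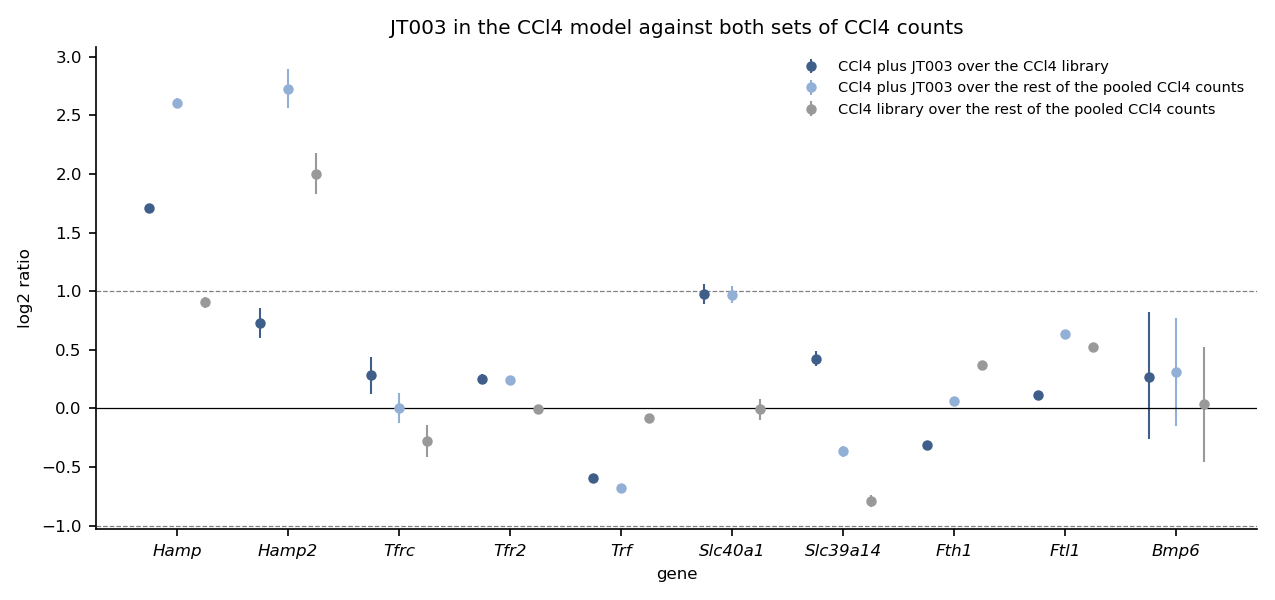
log2 ratio (y axis) of each of the 10 genes (x axis) for CCl4 plus JT003 over the CCl4 library, CCl4 plus JT003 over the rest of the pooled CCl4 counts, and the CCl4 library over that rest. Lines are 95% intervals of counting error and dashed lines mark -1 and 1; Hamp in CCl4 plus JT003 is above 1 against both (1.71 and 2.61), and Slc40a1 is the same against both (0.98 and 0.97).

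Bmp6 is the ligand by which sinusoidal endothelial cells report iron stores to the hepatocyte. It was scarce, with 133 reads in SD, 81 with HFD and 129 with HFD plus JT003. It had 77 reads in Corn oil, 54 with CCl4 and 66 with CCl4 plus JT003. Its highest library was SD and its lowest CCl4, but each pair of neighbours in the order of the 6 libraries had overlapping intervals. HFD over SD gave a log2 ratio of -0.79 (95% interval -1.22 to -0.40), and it was 0.64 (95% interval 0.24 to 1.07) for HFD plus JT003 over HFD. For CCl4 over Corn oil it was -0.78 (95% interval -1.33 to -0.28), and for CCl4 plus JT003 over CCl4 it was 0.27 (95% interval -0.26 to 0.83). None of the 4 was called. The summed level of 9 markers of sinusoidal endothelial cells, none at 0 in any library, was 99.9, 108 and 132 FPKM in SD, HFD and HFD plus JT003 and 63.9, 42.8 and 66.8 FPKM in Corn oil, CCl4 and CCl4 plus JT003. All 9 of these markers had a negative log2 ratio for CCl4 over Corn oil, with 2 called, while with the remainder 7 of the 9 were negative and none was called, and their part in the Bmp6 values was not tested.

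The BMP and SMAD list held 18 further genes of hepcidin control. In HFD, 0 were called higher and 1 lower, with a median log2 ratio of -0.07 beside 0.00 over all genes. With JT003 on the diet, 1 was called higher and 0 lower, with a median of 0.16 beside -0.01. In CCl4, 0 were called higher and 1 lower, with a median of 0.03 beside 0.00, and with JT003 in the CCl4 model none was called, with a median of 0.00 beside 0.00.

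Id1, an inhibitor of transcription factors that BMP signalling induces directly, had 204 reads in SD, 51 with HFD and 157 with HFD plus JT003. It fell with a log2 ratio of -2.05 in HFD (95% interval -2.56 to -1.64) and rose with one of 1.56 with JT003 (95% interval 1.14 to 2.08). In the CCl4 model it had 216 reads in Corn oil, 498 with CCl4 and 455 with CCl4 plus JT003, with log2 ratios of 0.91 and -0.14, or 0.43 for JT003 against the remainder, and no call. Hamp and Id1 were thus both lowest in HFD. In the CCl4 model, Id1 was not told apart between CCl4 plus JT003 and CCl4 (95% interval -0.33 to 0.05). Smad7, the inhibitory SMAD that the pathway also induces, was not called, with log2 ratios of -0.51 and 0.72 for the diet and for JT003 on it, and of 0.65 and 0.06 in the CCl4 model. Atoh8, a further BMP target, had log2 ratios of -0.63, -0.03, 0.14 and -0.08 in the same order.

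Bmp2, the ligand that sets the basal level of hepcidin, had 265 reads in Corn oil, 131 with CCl4 and 258 with CCl4 plus JT003. It fell in CCl4 with a log2 ratio of -1.29 (95% interval -1.62 to -0.997), and with JT003 it had one of 0.96, or 0.27 against the remainder, and was not called. The call rested on the CCl4 library, since Bmp2 in the remainder over Corn oil had a log2 ratio of -0.61 and was not called. The co-receptor hemojuvelin (listed as Hfe2), the iron sensor partner Hfe and the protease Tmprss6, which cuts hemojuvelin and restrains hepcidin, were called in none of the 4 comparisons. Tmprss6 was highest in CCl4, with 11102 reads against 7150 in Corn oil and 7847 in CCl4 plus JT003, and its log2 ratios there were 0.35 and -0.51.

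The interleukin-6 and STAT3 list held 8 genes. In HFD, 1 of 7 with reads was called higher and 0 lower, with a median log2 ratio of 0.20 beside 0.00 over all genes, and with JT003 on the diet none was called. In CCl4, 0 of 8 were called higher and 1 lower, with a median of 0.21, and with JT003 in the CCl4 model 1 was called higher and 0 lower, with a median of -0.01. Il6 itself was at 0 in 4 libraries and had 1 read in CCl4 and 1 in CCl4 plus JT003. The receptor chain Il6ra rose in HFD from 354 to 804 reads, a log2 ratio of 1.09. Socs3, the feedback inhibitor that STAT3 induces, had 425 reads in Corn oil, 242 with CCl4 and 537 with CCl4 plus JT003. It fell in CCl4 (log2 ratio -1.09) and rose with JT003 there (1.13), while in the diet model it had log2 ratios of 0.06 and -0.30. Against the remainder of the pooled CCl4 counts, Socs3 in CCl4 plus JT003 had a log2 ratio of 0.85 and was not called, and the remainder over Corn oil gave -0.81 and no call either. Of the 8 genes of the list, 0 were called higher and 1 lower in CCl4 plus JT003 over the remainder, with a median of -0.21.

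Of the acute phase genes, which the same cytokine pathway raises in hepatocytes, those called with JT003 fell in the diet model and rose in the CCl4 model, and this difference was not tested. In HFD plus JT003, 0 of 10 acute phase genes were called higher and 2 lower than in HFD, all 10 had a negative log2 ratio, and the median was -0.59. Serum amyloid A gene Saa1 had 14765, 9390 and 4492 reads in SD, HFD and HFD plus JT003, and fell with JT003 by 1.09 on the log2 scale. Saa2 fell by 1.33. In CCl4 plus JT003, 2 of the 10 were called higher and 0 lower than in CCl4, with a median of 0.16. Saa1 had 4759, 5311 and 13479 reads in Corn oil, CCl4 and CCl4 plus JT003 and rose with a log2 ratio of 1.33, and Saa2 rose with one of 1.67. Against the remainder of the pooled CCl4 counts these rises were not seen, with log2 ratios of -0.11 for Saa1 and -0.02 for Saa2, and 9 of the 10 genes had a negative log2 ratio with 1 called lower. Hamp was higher in CCl4 plus JT003 against both sets of CCl4 reads. For HFD over SD, none of the 10 was called and 9 had a negative log2 ratio, with a median of -0.20. For CCl4 over Corn oil, 3 were called higher and 0 lower, namely Saa3 (1.71), Orm2 (2.03) and Itih4 (1.09), and with the remainder 7 were called higher and 0 lower. Itih4 was outside the rule for named genes and was chosen after its value was seen.

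**Figure D4:**
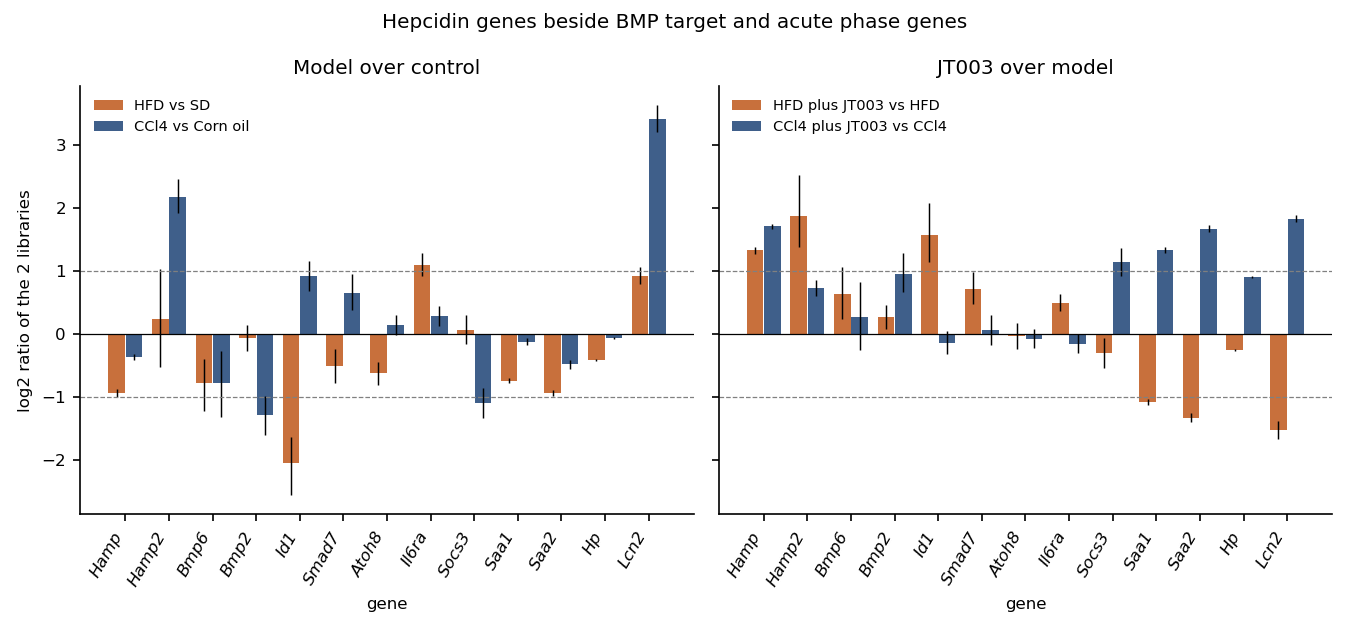
log2 ratio (y axis, bars from 0) of the hepcidin genes, BMP ligands and targets, interleukin-6 pathway genes and acute phase genes (x axis), for the model over its control on the left and JT003 over the model on the right. Lines are 95% intervals of counting error and dashed lines mark -1 and 1; with JT003, Hamp was at 1.33 in the diet model and 1.71 in the CCl4 model, while Saa1 was at -1.09 and 1.33 and Id1 at 1.56 and -0.14.

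Tfr2, the hepatocyte receptor that senses iron-loaded transferrin, had 9167, 8116 and 8745 reads in SD, HFD and HFD plus JT003. It had 9009 reads in Corn oil, 8817 with CCl4 and 10554 with CCl4 plus JT003. Its log2 ratios were -0.27, 0.09, -0.32 and 0.25 in the 4 comparisons, and none was called. After scaling, Corn oil was the highest library and HFD the lowest.

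Tfrc, the receptor that takes iron-loaded transferrin into dividing and other cells, had 359 reads in SD, 356 with HFD and 255 with HFD plus JT003. It had 370 reads in Corn oil, 609 with CCl4 and 746 with CCl4 plus JT003. The lowest library was HFD plus JT003 and the 2 highest were those with CCl4. Its log2 ratio was -0.10 for HFD over SD, where the sign turned with scaling to total reads (0.02), and -0.50 (95% interval -0.74 to -0.27) for JT003 on the diet. It was 0.43 (95% interval 0.24 to 0.62) for CCl4 over Corn oil and 0.28 (95% interval 0.13 to 0.44) for JT003 in the CCl4 model. The last value was 0.00 against the remainder of the pooled CCl4 counts (95% interval -0.13 to 0.13). For the remainder over Corn oil, Tfrc had a log2 ratio of 0.71 (95% interval 0.55 to 0.88) in place of 0.43. No comparison was called. All 10 mitosis genes were called higher in the CCl4 library over Corn oil and all 10 were called lower with JT003, and their part in the Tfrc values was not tested. They summed to 1.4 to 3.65 FPKM in the diet model and Corn oil, 116 FPKM in CCl4 and 9.20 FPKM in CCl4 plus JT003, where Tfrc was highest.

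On the FPKM scale, Tfr2 was 35.4, 31.6 and 47.4 times Tfrc in SD, HFD and HFD plus JT003. It was 34.3, 20.2 and 19.98 times Tfrc in the same order of the CCl4 model, so the ratio was lower in both libraries with CCl4 than in the other 4.

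Trf encodes transferrin, the iron carrier of plasma that hepatocytes secrete, and it had the highest FPKM of the 10 genes in 5 of the 6 libraries, Ftl1 being higher in Corn oil. It had 302894 reads in SD, 304100 with HFD and 290134 with HFD plus JT003. It had 204081 reads in Corn oil, 567485 with CCl4 and 378564 with CCl4 plus JT003. The 3 diet libraries lay close together, while the CCl4 library stood above all others and Corn oil below. Trf rose in CCl4 with a log2 ratio of 1.19 (95% interval 1.18 to 1.19), or 2.28-fold, and 10.7% of all genes moved at least as far. The call was lost with an assumed coefficient of variation of 0.2 between mice. Against CCl4, CCl4 plus JT003 had a log2 ratio of -0.59, which missed the threshold, and against the remainder of the pooled counts it had -0.68. In the diet model the log2 ratios were -0.09 for HFD over SD, whose sign turned with scaling to total reads (0.04), and -0.09 for JT003.

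Slc40a1 encodes ferroportin, the exporter on which hepcidin acts, which macrophages and hepatocytes carry. It had 1849 reads in SD, 2872 with HFD and 4706 with HFD plus JT003. It had 1116 reads in Corn oil, 1564 with CCl4 and 3100 with CCl4 plus JT003. In each model the library with JT003 was the highest and the control the lowest, and after scaling only CCl4 plus JT003 and HFD had overlapping intervals. HFD over SD gave a log2 ratio of 0.54 (95% interval 0.46 to 0.63), and it was 0.69 (95% interval 0.62 to 0.76) for JT003 on the diet. It was 0.20 (95% interval 0.09 to 0.31) for CCl4 over Corn oil and 0.98 (95% interval 0.89 to 1.06) for JT003 in the CCl4 model, just under the threshold of 1. With total reads in place of TMM the last value was 1.04 and was called. The value against the remainder of the pooled CCl4 counts was 0.97 (95% interval 0.90 to 1.04).

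Markers of Kupffer cells and macrophages, which carry Slc40a1, are given beside it, and their part in its values was not tested. Their summed level, over 10 genes with none at 0, was 160, 178 and 237 FPKM in SD, HFD and HFD plus JT003 and 38.0, 121 and 193 FPKM in Corn oil, CCl4 and CCl4 plus JT003. This sum had the same order as Slc40a1 within each model. For HFD over SD none of the 10 was called and their median log2 ratio was 0.07, where Slc40a1 had 0.54. For CCl4 over Corn oil 6 were called higher and 0 lower with a median of 1.45, where Slc40a1 had 0.20. With JT003 on the diet all 10 had a positive log2 ratio and none was called. Their median was 0.58, where Slc40a1 had 0.69. With JT003 in the CCl4 model 2 were called higher and 8 of 10 were positive, with a median of 0.64, where Slc40a1 had 0.98. Against the remainder of the pooled CCl4 counts, 7 of the 10 markers were negative and 2 were called lower, with a median of -0.32, where Slc40a1 had 0.97.

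Slc39a14, the importer of iron that is not bound to transferrin, had 3952 reads in SD, 6210 with HFD and 4410 with HFD plus JT003. It had 2889 reads in Corn oil, 3863 with CCl4 and 5225 with CCl4 plus JT003. HFD was its highest library and Corn oil its lowest. HFD over SD gave a log2 ratio of 0.56 (95% interval 0.50 to 0.62), and it was -0.52 (95% interval -0.57 to -0.46) for JT003 on the diet, where SD and HFD plus JT003 had overlapping intervals. It was 0.13 for CCl4 over Corn oil and 0.42 for JT003 in the CCl4 model. The last value turned to -0.37 against the remainder of the pooled CCl4 counts, in which Slc39a14 stood 1.73-fold above the CCl4 library. For the remainder over Corn oil, Slc39a14 had a log2 ratio of 0.92 (95% interval 0.86 to 0.98) in place of 0.13. No comparison was called.

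The ferritins and Tfrc carry iron-responsive elements, hairpins bound by iron regulatory proteins when iron is low. In the ferritin transcripts the hairpin lies in the 5′ UTR and blocks translation, and in Tfrc several lie in the 3′ UTR and protect the transcript from decay. They are shown because those of Tfrc act on the level of the transcript, which was measured, while those of the ferritins act on translation, which was not. A hairpin was searched as an unpaired C, a stem of 5 pairs (G with T allowed) and a loop that begins CAGTG, on the strand of the transcript. It was found in the 5′ UTR of 16 and in the 3′ UTR of 83 of 20496 genes. The sequences are from GENCODE M21 transcripts on GRCm38, with the 6 bases of the loop in capitals.
Fth1, chr19:9982732-9982760, plus strand: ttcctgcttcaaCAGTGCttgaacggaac
Ftl1, chr7:45459779-45459807, minus strand: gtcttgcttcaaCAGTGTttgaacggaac
Tfrc, chr16:32631219-32631247, plus strand: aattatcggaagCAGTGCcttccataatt
Tfrc, chr16:32631598-32631626, plus strand: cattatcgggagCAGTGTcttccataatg
Tfrc, chr16:32631663-32631691, plus strand: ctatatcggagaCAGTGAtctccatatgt
Tfrc, chr16:32631710-32631738, plus strand: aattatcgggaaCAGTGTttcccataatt
Both ferritins held 1 such hairpin and Tfrc held 4. The listing did not take in Slc40a1, so it does not show whether that gene holds one.

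Fth1, the ferritin heavy chain that oxidises iron for storage, had 19022 reads in SD, 19113 with HFD and 18213 with HFD plus JT003. It had 25317 reads in Corn oil, 34512 with CCl4 and 28053 with CCl4 plus JT003, so that every library of the CCl4 model stood above every library of the diet model. Its log2 ratios were small and none was called. They were -0.08 for HFD over SD (0.04 with total reads, so that the sign turned), -0.09 for JT003 on the diet, 0.16 for CCl4 over Corn oil and -0.31 for JT003 in the CCl4 model. Where the remainder of the pool replaced the CCl4 library, the last 2 values turned to -0.21 and 0.06.

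Ftl1, the ferritin light chain that helps form the iron core, had 89202 reads in SD, 60872 with HFD and 62180 with HFD plus JT003. It had 109636 reads in Corn oil, 95609 with CCl4 and 103922 with CCl4 plus JT003. The 2 libraries with the high fat diet were the lowest of the 6 and had overlapping intervals. HFD over SD gave a log2 ratio of -0.64 (95% interval -0.66 to -0.63), and it was 0.01 (95% interval -0.01 to 0.02) for JT003 on the diet. It was -0.49 for CCl4 over Corn oil and 0.11 for JT003 in the CCl4 model, or 0.63 against the remainder. On the FPKM scale Ftl1 was 4.47, 3.04 and 3.26 times Fth1 in SD, HFD and HFD plus JT003, and 4.13, 2.64 and 3.53 times Fth1 in the 3 libraries of the CCl4 model. The ratio was thus lower in HFD than in SD and lower in CCl4 than in Corn oil. Ferritin genes have processed copies elsewhere in the genome, so reads may be shared with them.

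Across the 10 genes, the median log2 ratio was -0.09 for HFD over SD beside 0.00 over all genes, and 0.05 for JT003 on the diet beside -0.01. It was 0.14 for CCl4 over Corn oil beside 0.00, and 0.28 for JT003 in the CCl4 model beside 0.00.

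Other genes of iron metabolism were counted by list. Of 10 genes of iron uptake, reduction and oxidation, 1 was called higher in HFD (median log2 ratio 0.06), 1 lower with JT003 on the diet (0.08), 1 higher in CCl4 (0.47) and none with JT003 in the CCl4 model (-0.33). Steap4, a metalloreductase that reduces iron and copper, had 1241 reads in SD, 7800 with HFD and 3822 with HFD plus JT003. It rose in HFD with a log2 ratio of 2.56 and fell with JT003 by 1.05. The related Steap2 rose in CCl4 with a log2 ratio of 1.82, from 125 to 546 reads. Cp, the ferroxidase ceruloplasmin that loads iron onto transferrin, had 14306 reads in Corn oil and 33353 in CCl4, a log2 ratio of 0.93 that missed the threshold. The remainder over Corn oil gave 1.26 for Cp, which was called, and 3 genes of the list called higher.

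Of 8 genes of heme and hemoglobin scavenging, none was called in HFD (median log2 ratio -0.30), 1 lower with JT003 on the diet (-0.22), 1 higher in CCl4 (0.25) and 1 higher with JT003 in the CCl4 model (0.45). The called gene was Lcn2 each time, which encodes lipocalin 2, a binder of the iron carriers of bacteria. It had 712 reads in SD, 1442 with HFD and 507 with HFD plus JT003, and fell with JT003 by 1.53 on the log2 scale. The list held 2 genes called higher in the remainder over Corn oil. Lcn2 had 208 reads in Corn oil, 2714 with CCl4 and 9725 with CCl4 plus JT003, with log2 ratios of 3.41 and 1.83. Against the remainder of the pooled CCl4 counts, Lcn2 in CCl4 plus JT003 had a log2 ratio of -0.88, so its rise with JT003 rested on the CCl4 library. Haptoglobin (Hp), which binds free hemoglobin, had 71831, 83986 and 157884 reads in Corn oil, CCl4 and CCl4 plus JT003, and log2 ratios of -0.06 and 0.90, the latter 0.22 against the remainder. Hemopexin (Hpx), which binds free heme, had a log2 ratio of 0.76 for CCl4 over Corn oil and 0.08 with JT003. Neither was called in any of the 4 comparisons.

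Of 12 genes of heme synthesis and degradation, none was called in the diet model (medians 0.03 and -0.08), 1 was higher in CCl4 (0.00) and 1 was higher with JT003 in the CCl4 model (-0.19). Hmox1, the heme oxygenase that frees iron from heme, rose in CCl4 with a log2 ratio of 1.196, from 157 to 442 reads. For the remainder over Corn oil, 1 of the 12 genes was called higher and 2 lower, with a median of -0.11. Alas1, the first enzyme of heme synthesis in the liver, rose with JT003 in the CCl4 model from 10199 to 26777 reads, a log2 ratio of 1.38, and against the remainder it rose with one of 2.12. Alas1 was thus higher in CCl4 plus JT003 against both sets of CCl4 reads, like Hamp.

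None of 6 genes of iron sensing and ferritin turnover was called in any of the 4 comparisons, with medians of 0.14, 0.17, -0.06 and -0.08. Ncoa4, the receptor that carries ferritin to the lysosome, had log2 ratios of 0.07, 0.30, -0.58 and 0.10. None of 11 genes of mitochondrial iron and iron-sulfur clusters was called either, with medians of -0.22, -0.06, -0.04 and 0.04.

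**Figure D5:**
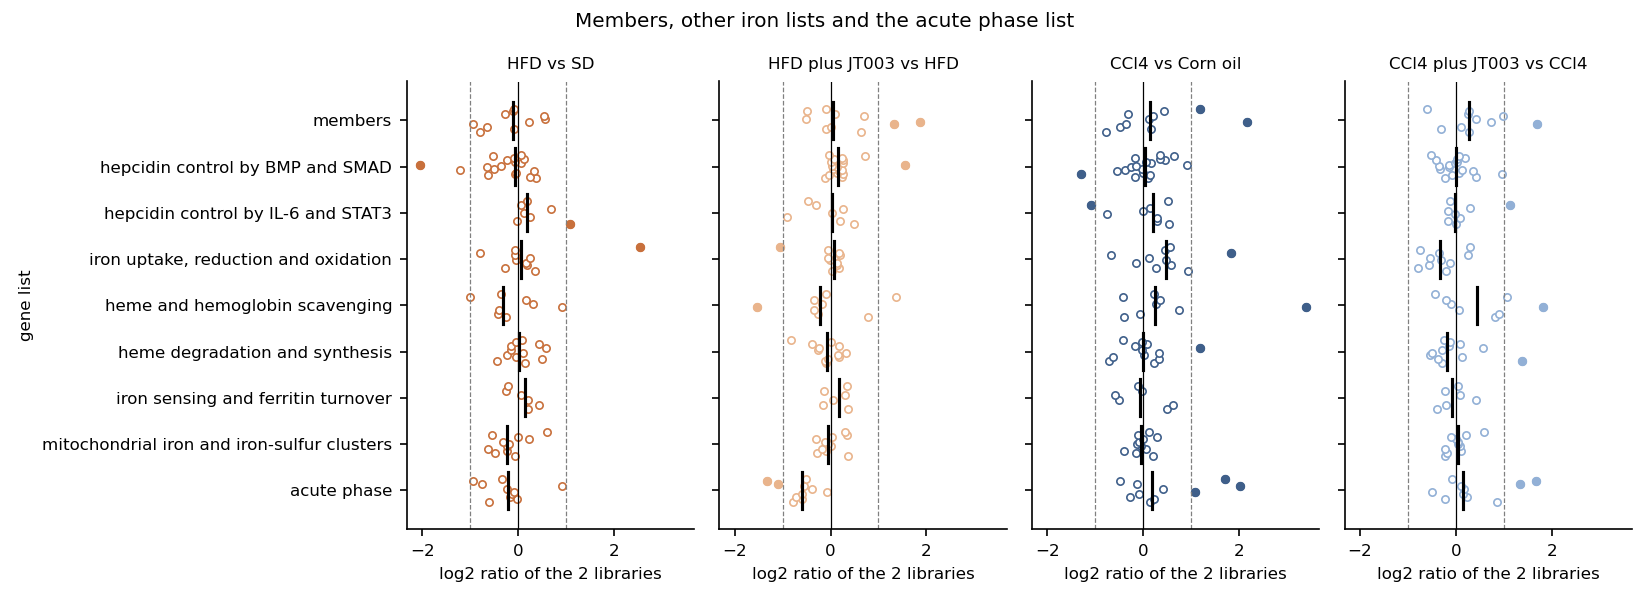
log2 ratio (x axis) of every gene with reads in the 10 members, the 7 other iron lists and the acute phase list (y axis), in the 4 comparisons. Points are genes, filled where called, black bars are the medians of the lists and dashed lines mark -1 and 1; the acute phase median is -0.59 with JT003 on the diet and 0.16 with JT003 in the CCl4 model.

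Red blood cells bring hemoglobin transcripts to a liver sample, and these differed between libraries. Of 10 markers found, 9 had reads in HFD or SD and 4 were called lower in HFD, with a median log2 ratio of -0.86, while none was called with JT003 on the diet. In the CCl4 library, 3 were called lower than in Corn oil and all 10 were negative, while in the remainder 6 were called higher than in Corn oil and 0 lower, with a median of 1.47. Their summed level was 779, 415 and 581 FPKM in SD, HFD and HFD plus JT003 and 918, 507 and 535 FPKM in Corn oil, CCl4 and CCl4 plus JT003, with up to 2 of the markers at 0 in a library (Ahsp and Hbb-b1). The part of blood in the values of the 10 iron genes was not tested. Of the other marker lists, 5 of 10 stellate cell and myofibroblast genes were called higher in HFD and 3 in CCl4, with 3 lower with JT003 in each model, and 5 were called higher in the remainder over Corn oil. Their sum was 74.2 to 124 FPKM. No gene of 9 neutrophil markers was called in the 4 comparisons, and their sum was 6.51 to 17.8 FPKM, with up to 2 (Ltf and Mpo) at 0 in a library. In the remainder, 4 of the 9 were called higher than in Corn oil.

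The genes whose pattern over the 6 libraries was most like that of Hamp were Arhgef1, Cradd and Aifm2, with Pearson correlations of 0.983, 0.981 and 0.980 of log2(FPKM + 1), among 10278 genes with at least 100 reads in a library. For Slc40a1 they were Smarca5 (0.996), Rabgap1 (0.994) and Capn7 (0.991), and for Tfrc they were Kti12 (0.994), Fbxw4 (0.990) and Rap1gap (0.989). These correlations describe only 6 libraries of similar depth, and with so many genes to choose from high values are easily found. Among the members, Hamp was most like Tfr2 (0.942) and had a correlation of 0.148 with Slc40a1.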

How the data were processed

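Liver RNA was sequenced on a BGISEQ-500 in 6 libraries. The authors deposited expected counts and FPKM values for each gene in each library, and the submitters' processing notes name HISAT, Bowtie2, RSEM and the build mm9. The expected counts deposited by the authors are estimated reads without normalization, in which reads shared by several genes are split. The FPKM values deposited by the authors are scaled to transcript length and to the reads of the library. Names and sequences came from RefSeq and GENCODE on GRCm38, which is not the build named for the files, so no count was placed by coordinates. The 4 deposited comparison tables hold the authors' fold changes and p-values, which were not used, and 7 of their expression columns were not used. Their pooled CCl4 count column was used as an authors' pooled value. In 24 genes it is below the CCl4 library by more than 0.02 reads, and by 0.99 reads at most.

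Expected counts were rounded and scaled by TMM within each model (edgeR 4.0.16, R 4.3.3). TMM factors were 0.941, 1.03, 1.04, 0.884, 1.04 and 1.09 in SD, HFD, HFD plus JT003, Corn oil, CCl4 and CCl4 plus JT003. Every gene with at least 1 read in a pair of libraries was tested by an exact conditional binomial test (two-sided, scipy 1.17.1) with p-values adjusted after Benjamini and Hochberg. A call needed an adjusted p-value below 0.001 and a log2 ratio of 1 or more in size, computed with 2 as the prior count. Intervals are 95% Clopper-Pearson for ratios and exact Poisson for levels. PCR reads carry no molecular identifiers here, so intervals cover counting error only. The order of levels used TMM over all 6 libraries. Ratios and CPM with the remainder of the pooled CCl4 counts used TMM over the remainder and the 3 libraries of the CCl4 model. The test was checked on simulated counts that held counting error only, so the check does not cover variation between mice. Tables, plots and alignments were made with Python 3.11.15, numpy 2.4.6, pandas 2.3.3, matplotlib 3.10.9 and Biopython 1.88.

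The members, the lists and the rules were chosen with earlier results of these data known. Of the lists, named were genes called with at least 100 reads in the higher library, at most 4 per list with the largest ratios, 16 genes chosen for their role, and the 3 genes most correlated with each of Hamp, Slc40a1 and Tfrc. Hjv was listed as Hfe2. Of 11 red blood cell markers, 10 were found. Alternatives were total reads, DESeq2 1.42.0 size factors, TMM over 6 libraries, minimums of 10 or 100 reads, no threshold on the ratio, 0.05 as the threshold of the adjusted p-value, 0.5 as the prior count, the exact test of edgeR with an assumed coefficient of variation of 0.2 or 0.4, log2 of FPKM plus 1 or 0.1, and the pooled CCl4 counts. The remainder of the pooled CCl4 counts was added after the data were seen.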

Additional observations from a re-analysis of the deposited data

Results flagged for a closer look

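In 4 genes the 95% intervals of the log2 ratios of the same contrast lay on opposite sides of 0 in the 2 models, and none of these differences was tested, since each model has 1 library per condition. For Trf the log2 ratio of HFD to SD was -0.086 and that of CCl4 to Corn oil was 1.19, and for Fth1 they were -0.084 and 0.16. The diet values of both turned positive with total reads, and that of Fth1 for CCl4 turned to -0.21 with the remainder of the pooled CCl4 counts. With JT003, Tfrc had a log2 ratio of -0.50 on the diet and of 0.28 in the CCl4 model, or 0.00 (95% interval -0.13 to 0.13) against the remainder. With JT003, Slc39a14 had a log2 ratio of -0.52 on the diet and of 0.42 in the CCl4 model, or -0.37 against the remainder. The opposite signs of Fth1, Tfrc and Slc39a14 thus rested on the CCl4 library.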

How the results depend on the processing

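Of 517 values of single genes under the alternatives, 459 kept their direction and their side of the threshold, 10 lost a call, 34 gained one and 14 changed sign. Of 52 counts of calls, 37 stayed within 1.5 times the main count. Without a threshold on the ratio, 8 of the 10 genes were called in each of the 4 comparisons, in place of 0, 2, 2 and 1, while 23.6%, 14.3%, 26.3% and 24.1% of all genes were. With an assumed coefficient of variation of 0.2, edgeR's exact test called 0 with JT003 on the diet, 1 in CCl4 over Corn oil and 0 with JT003 in the CCl4 model, and at 0.4 it called 0 in each. With JT003 in the CCl4 model, 2 genes were called with total reads and with FPKM plus 1 or 0.1 (Hamp and Slc40a1), and 2 with the pooled CCl4 counts or their remainder (Hamp and Hamp2). Scaling to total reads shifts every log2 ratio by the ratio of the TMM factors, which is 0.12 for HFD over SD, 0.01 for JT003 on the diet, 0.23 for CCl4 over Corn oil and 0.07 for JT003 in the CCl4 model. For HFD over SD, the sign turned in Tfrc (0.021 with total reads, 0.016 and 0.020 with FPKM plus 1 and 0.1), Trf (0.039, 0.037 and 0.037) and Fth1 (0.040, 0.038 and 0.038). With the pooled CCl4 counts Slc39a14 turned to -0.15 with JT003. With the remainder it turned to -0.37, Fth1 turned to 0.060 with JT003 and to -0.21 for CCl4 over Corn oil, and Tfrc over the remainder was -0.0012 with total reads. The causes were not tested, and the remainder was chosen as an alternative after the data were seen. Bmp6 and Hamp2, with fewer than 150 reads in several libraries, are limited by depth.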
